A study of Mus musculus with 2 samples.

Results

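Oncofetal genes are genes that the embryo and fetal liver express, that adult liver keeps low and that liver tumours often express again. Of the 32285 genes in the count table, 10 are described here: the chromatin genes Hmga2 and Hmga1, the RNA-binding genes Igf2bp1, Igf2bp2, Igf2bp3 and Lin28b, and Gpc3, Afp, Spink1 and Bex2. They were taken by symbol, and all 10 symbols were found. The set was put together with earlier results from these nuclei in view, namely levels across classes of nuclei and the share of positive nuclei in the tumour classes, so the values describe the genes and no test was made on them. The last 4 genes are neither RNA-binding nor chromatin genes: Gpc3 is a cell-surface proteoglycan, Afp a secreted plasma protein, Spink1 a secreted trypsin inhibitor and Bex2 a small cytoplasmic and nuclear adaptor protein.

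The study cut out the area that still held tumour from frozen livers of mice with hepatocellular carcinoma (HCC), then isolated and profiled nuclei. The series concerns minimal residual disease, the tumour left behind, and its labels list 2 samples, both MRD-HCC, with no untreated or tumour-free group, and name no treatment, strain, genotype or age. Droplet libraries of 3' ends were made, and counts are of unique molecular identifiers (UMIs), which mark single captured RNA molecules. All counts sit in 1 matrix whose barcodes name no sample, so the nuclei were treated as 1 pooled sample, there are no replicates, and no value has a test.

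As background, HMGA proteins bind AT-rich DNA in the minor groove and change chromatin shape. The IGF2BP proteins bind mRNAs, Igf2 and Myc among them, and alter their stability, movement and translation. LIN28B blocks the maturation of let-7 miRNAs, and let-7 in turn lowers Hmga2, Lin28b, the Igf2bp genes and other fetal transcripts through sites in their 3' UTRs, so that these genes form a switch between fetal and adult states. AFP and GPC3 are standard serum and tissue markers of human HCC.

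The letters that link the chromatin and RNA-binding genes are the let-7 seed and its matches. RefSeq lists 11 mature let-7 and miR-98 sequences for the mouse (GRCm38.p6), of which 10 share the seed GAGGUAG. In the 3 that follow, read 5′ to 3′, capitals mark that seed, bases 2 to 8.
mmu-let-7a-5p: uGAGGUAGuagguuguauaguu
mmu-let-7g-5p: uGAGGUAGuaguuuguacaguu
mmu-miR-98-5p: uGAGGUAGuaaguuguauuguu

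The longest annotated 3' UTR of each gene was searched on its sense strand for CTACCTC, the reverse complement of the seed in DNA letters (GRCm38). Hmga2, Igf2bp1 and Lin28b each held 4 matches. Hmga1, Igf2bp2 and Igf2bp3 each held 1. Gpc3, Afp, Bex2 and Spink1 held 0, and their 3' UTRs were short, at 441, 201, 249 and 78 bases, against a median of 954 over 20970 genes. A match stood in 8.96% of all these 3' UTRs, in 15.1% of the 10167 with at least 1000 bases, and 3 or more stood in 0.153%. The 6 RNA-binding and chromatin genes were therefore all among the genes with a match, and the other 4 were not. A match is a string of letters here and was not tied to any measurement of let-7, which these libraries do not capture. The sites that follow are given because they show the shared letters, in capitals, in the genes whose levels are described next.
Hmga2, chr10:120364220-120364241, minus strand: cattcaatttCTACCTCagcat
Hmga2, chr10:120362983-120363004, minus strand: ctcctcaataCTACCTCtgaat
Igf2bp2, chr16:22059469-22059490, minus strand: caaataaaagCTACCTCaggtg
Igf2bp3, chr6:49086783-49086804, minus strand: ttttactcaaCTACCTCaggta
Lin28b, chr10:45381018-45381039, minus strand: ggcgggaagtCTACCTCatgca

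The filtered matrix held 17169 barcodes with 891 to 125991 UMIs each (median 2794), and 16411 passed the filters. Nuclei were sorted into 19 classes by sums of marker genes that exceeded free RNA, the RNA that droplets also hold without a nucleus, and none of the 10 genes was a marker. The labels do not say which nuclei are tumour. Nuclei rich in Pkhd1, Ahnak2, Dclk1 and 4 other markers are called Pkhd1-high, and the Zfp804a type is counted with them (2753 nuclei, median 6011 UMIs). They divide into a Kcnj16 and Slc8a3 type (903 nuclei), a Zfp804a type (81 nuclei) and the other Pkhd1-high nuclei (1769). The Zfp804a type was gated on Zfp804a with either the Pkhd1 or the Ccnd3 markers, and 75 of its nuclei lay in 1 cluster. Its nuclei therefore need not have passed the Pkhd1 markers. Their median Pkhd1 marker sum was 2736 CPM, below the 5470 CPM of the other Pkhd1-high nuclei and the 5700 CPM of ductal nuclei. Their median Ccnd3 marker sum, 12322 CPM, was the highest of the 19 classes. Nuclei that passed a set of 10 markers with Ccnd3, Il34 and Sema5a among them, but not the Pkhd1 or bile duct markers, are called Ccnd3-high (439 nuclei, median 3740 UMIs). None of the Ccnd3 markers was among the 10 genes by which this class stood out, and 8 clusters each held 10 or more of its nuclei. Its median Ccnd3 marker sum, 5362 CPM, was below that of each Pkhd1-high type (5552 to 12322 CPM) and of ductal nuclei (7183 CPM). The name thus gives the gate and not a higher level than in those classes, and the borders of the class are loose. Ductal nuclei carried Asz1, Tinag and bile duct markers (223 nuclei, of which 121 lay close to the threshold). Another 439 nuclei passed bile duct and Ccnd3 markers together. Hepatocyte-like nuclei (1626, median 12561 UMIs) and sinusoidal endothelial-like nuclei (120, median 1998 UMIs) served for comparison. Another 6923 nuclei, with a median of 1190 UMIs, entered no class, and 1854 carried markers of more than 1 lineage. Scrublet called 323 of the 9632 deeper nuclei doublets, and they were kept here.

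Levels are a gene's share of all UMIs of a class, in CPM (UMIs scaled to a class total of 1e6), with free RNA left in, and brackets give exact 95% intervals. Free RNA was measured in 49929 barcodes without a called nucleus, and in the 15 classes where a bound could be had, hepatocyte-like nuclei not among them, a nucleus held at most 808 to 1173 UMIs of it. The UMIs that free RNA would give are therefore reckoned at 1000 per nucleus in every class. All intervals of levels, ratios and shares cover counting error in these nuclei only, since the nuclei are not independent samples. Levels are not compared between genes, which differ in length from 1.67 kb for Bex2 to 342 kb for Gpc3 in a nuclear library.

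Hmga2 (chr10:120361275-120476469, minus strand) encodes an HMGA protein of embryonic and stem cells. Its 3609 UMIs were concentrated, and the 193 nuclei with 5 or more held 69.1% of those in the kept nuclei. The level was 766 CPM (697 to 839) in the Zfp804a type, where 62 of 81 nuclei carried it. It was 6.07 CPM (4.46 to 8.07) in the Kcnj16 and Slc8a3 type and 70.8 CPM (65.8 to 76.2) in the other Pkhd1-high nuclei. The Zfp804a type thus stood 126 times above the Kcnj16 and Slc8a3 type (93.3 to 174), and Hmga2 was second only to Zfp804a itself among the genes that set this class apart. Hepatocyte-like nuclei had 2.45 CPM (1.85 to 3.19), ductal nuclei 4.48 CPM (1.46 to 10.5) and free RNA 17.3 CPM. In the Kcnj16 and Slc8a3 type the 47 UMIs compare with 15.7 that free RNA would give, and in ductal nuclei 5 compare with 3.87.

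In the order of the 17 classes with at least 50 nuclei, the Zfp804a type was first for Hmga2, 9.38 times above the next (7.89 to 11.2). The Ccnd3-high class at 81.7 CPM (70.3 to 94.3), the 130 cholangiocyte-like nuclei at 72.0 (47.5 to 105) and the other Pkhd1-high nuclei followed, and neighbours among these 3 differed by less than their counting error. Of the 27 cholangiocyte-like UMIs, 10 lay in 1 nucleus, and the level was 46.7 CPM without it. The Ccnd3-high value rests largely on 1 nucleus that held 90 of the 184 UMIs, and was 41.8 CPM without it. In the nuclei with bile duct and Ccnd3 markers, 43 of 96 UMIs lay in 1 nucleus, and the level of 49.9 CPM was 27.7 without it. Sinusoidal endothelial-like nuclei had 44.0 CPM (22.8 to 76.9) from 12 UMIs, against 2.08 from free RNA, and other endothelial-like nuclei 16.6 CPM (11.6 to 23.1).

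Hmga1 (84 UMIs), which encodes the related HMGA protein of dividing cells, was near the detection limit, with at most 1 UMI in any nucleus. Pkhd1-high nuclei had 1.24 CPM from 23 UMIs and hepatocyte-like nuclei 0.438 CPM from 10, a ratio of 2.82 (1.29 to 6.65). Free RNA stood at 1.37 CPM. The near-identical copy Hmga1b had 30 UMIs, and reads that could have come from either gene make the Hmga1 value uncertain.

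Igf2bp2 (chr16:22059009-22163299, minus strand), the most widely expressed of its family in adult tissue, was high in all 3 Pkhd1-high types. The level was 384 CPM (336 to 437) in the Zfp804a type, 270 (260 to 280) in the other Pkhd1-high nuclei and 202 (192 to 212) in the Kcnj16 and Slc8a3 type, and each differed from the next beyond counting error. It was 86.8 CPM in the 52 mesothelial-like nuclei from 11 UMIs, 85.8 in the nuclei with bile duct and Ccnd3 markers and 79.0 (67.8 to 91.5) in the Ccnd3-high class, and these 3 did not differ beyond counting error. Ductal nuclei had 22.4 CPM (14.5 to 33.1), close to the hepatocyte-like 20.8 (18.99 to 22.8), and free RNA 45.0.

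Within hepatocyte-like nuclei, Igf2bp2 was divided by zone. Periportal nuclei, which line the portal tracts, had 27.2 CPM (24.8 to 29.9; 449 UMIs against 53.6 from free RNA). Pericentral nuclei, next to the central vein, had 4.11 CPM (2.68 to 6.02; 26 UMIs against 19.5), a ratio of 6.63 (4.47 to 10.3). At similar depths (medians of 12394 and 13551 UMIs), 22.4% of periportal and 5.07% of pericentral nuclei carried a UMI.

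Igf2bp3 (chr6:49085223-49214957, minus strand), the family member best known for its return in carcinomas, was low but widespread. It was highest in ductal nuclei at 50.2 CPM (37.9 to 65.2), then 33.3 (25.6 to 42.5) in the nuclei with bile duct and Ccnd3 markers and 26.2 (19.9 to 33.8) in the Ccnd3-high class. The other Pkhd1-high nuclei had 20.7 CPM (18.02 to 23.7), the Zfp804a type 16.6 (7.98 to 30.6) and the Kcnj16 and Slc8a3 type 14.98 (12.4 to 17.96). Hepatocyte-like nuclei had 7.89 CPM (6.78 to 9.13), where the 180 UMIs were 30.5 times those of free RNA. Stellate-like nuclei reached 19.3 CPM (13.5 to 26.7), within the range of the Pkhd1-high types. Free RNA, at 3.64 CPM, was below the value of every class with at least 50 nuclei, though 4 of these values rest on 3 UMIs or fewer.

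Igf2bp1, the fetal member of the family, had 10 UMIs in all, each in a different nucleus. It had 2 UMIs in 2753 Pkhd1-high nuclei (0.108 CPM, 0.0130 to 0.389), 0 in hepatocyte-like nuclei, where 3 counts would be 0.131 CPM, and 0 in free RNA. Lin28b had 63 UMIs. Pkhd1-high nuclei had 12 and hepatocyte-like nuclei 14, or 0.646 and 0.614 CPM, and their ratio of 1.05 (0.445 to 2.45) has an interval that holds 1. A nucleus with markers of more than 1 lineage held 8 Lin28b UMIs, and a nucleus with bile duct and Ccnd3 markers held 5.

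**Figure D1:**
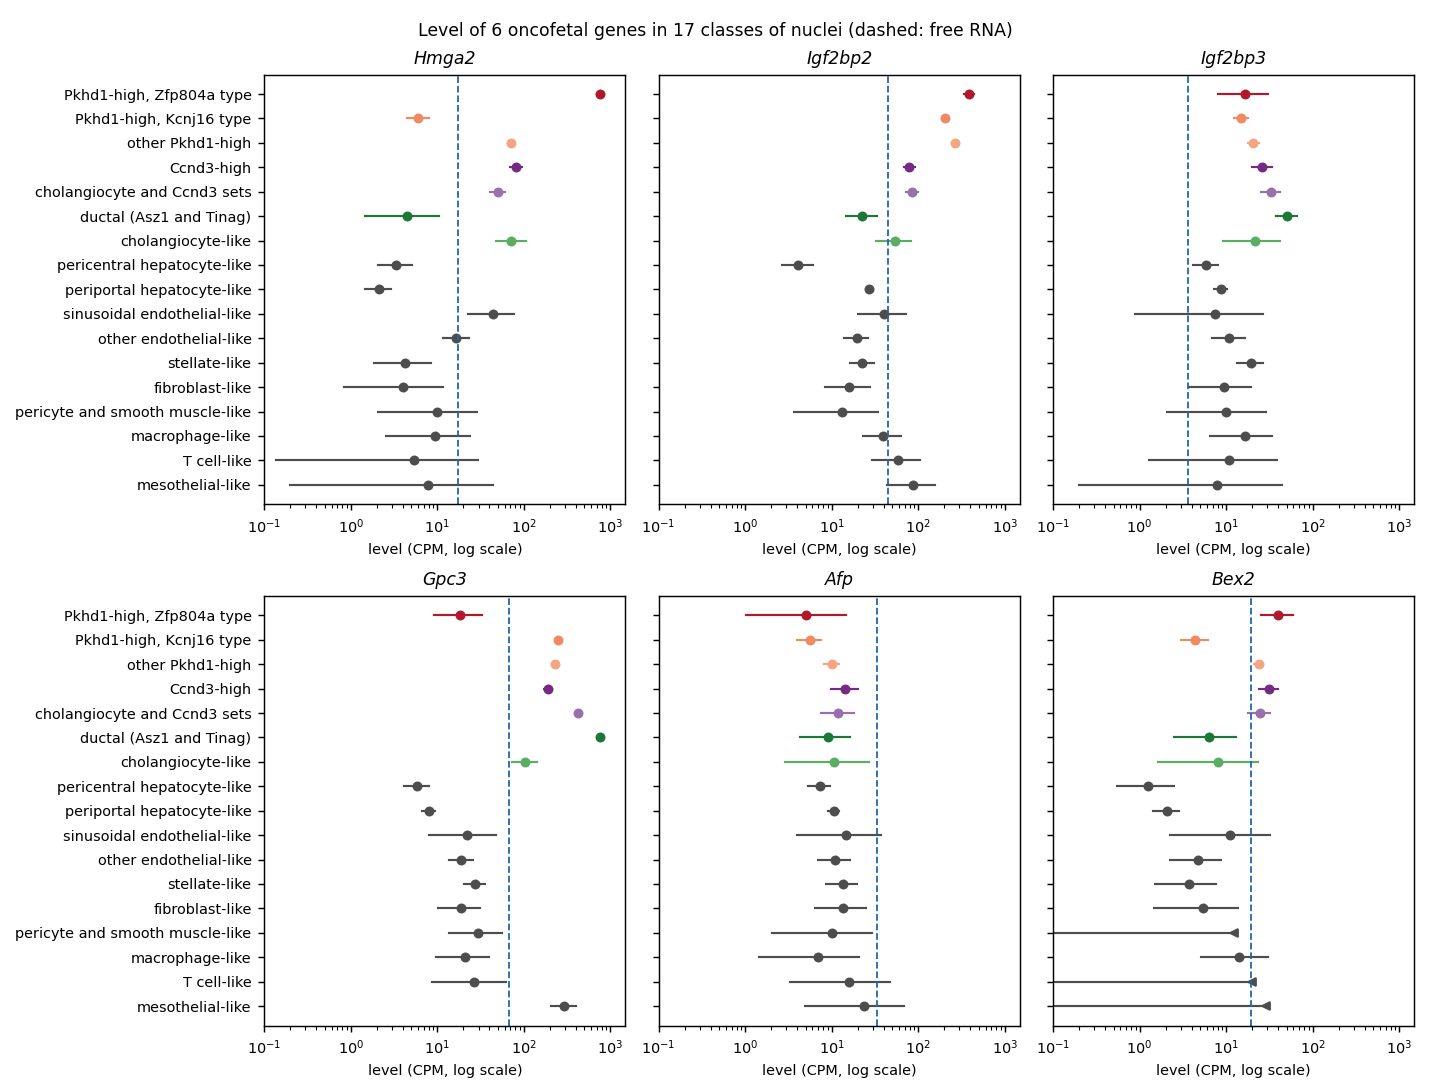
Level of 6 genes in the 17 classes of at least 50 nuclei, in CPM on a log scale. Points are class levels, lines exact 95% intervals for counting error, left-pointing triangles the upper bound where 0 UMIs were seen, and the dashed line free RNA. Hmga2 is highest in the Zfp804a type at 766 CPM, Gpc3 in ductal nuclei at 763 CPM, and every Afp level lies below free RNA.

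The plot of levels by class shows 4 patterns: Hmga2 peaked in the Zfp804a type, Igf2bp2 was shared by the Pkhd1-high types, Gpc3 and Igf2bp3 peaked in ductal nuclei, and Afp differed little between classes. The order of Gpc3 and Igf2bp3 turned when whole clusters took the place of classes. The cluster with 203 of the 439 Ccnd3-high nuclei had 564 CPM Gpc3 (545 to 584) and 49.2 CPM Igf2bp3 (43.6 to 55.4), and the cluster with 172 of the 223 ductal nuclei 507 (480 to 535) and 36.3 (29.3 to 44.5). Afp was 31.7 CPM in the former (27.2 to 36.8) and 3.94 in the cluster with most of the Kcnj16 and Slc8a3 type (2.79 to 5.41). In the cluster with 203 of the Ccnd3-high nuclei, Hmga2 was 8.11 CPM (5.92 to 10.9), against 81.7 in the Ccnd3-high class. Igf2bp2 was 33.4 CPM in that cluster (28.7 to 38.5), against 79.0 in the class.

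Gpc3 (chrX:52272426-52613950, minus strand) encodes glypican 3, a proteoglycan held on the cell surface by a lipid anchor. It had the most UMIs of the 10 genes, 11392, and 642 nuclei with 5 or more held 64.1% of those in the kept nuclei. Ductal nuclei were highest at 763 CPM (713 to 816), then the nuclei with bile duct and Ccnd3 markers at 427 (398 to 457). The Kcnj16 and Slc8a3 type had 252 CPM (241 to 264), the other Pkhd1-high nuclei 228 (219 to 237) and the Ccnd3-high class 191 (173 to 210). The Zfp804a type had 18.3 CPM (9.14 to 32.8), or 0.0726 times the Kcnj16 and Slc8a3 type (0.0362 to 0.130), and its 11 UMIs compare with 5.51 from free RNA. Mesothelial-like nuclei had 292 CPM (205 to 402) from 37 UMIs, of which 1 nucleus held 15, and 178 CPM without it. The whole cluster with 50 of the 52 mesothelial-like nuclei had 541 CPM (482 to 606). Of its 142 nuclei, 76 carried markers of more than 1 lineage. Hepatocyte-like nuclei had 7.36 CPM (6.29 to 8.56), and free RNA 68.1.

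Hmga2 and Gpc3 were thus opposed between the Pkhd1-high types. The type with the highest Hmga2 had the lowest Gpc3 of all the bile duct, Pkhd1 and Ccnd3 classes, and in ductal nuclei, with the highest Gpc3, Hmga2 was near the level that free RNA gives.

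Afp (chr5:90490737-90508907, plus strand) encodes alpha-fetoprotein, the main plasma protein of the fetus. No Pkhd1-high type stood above hepatocyte-like nuclei. The level was 5.55 CPM (4.02 to 7.48) in the Kcnj16 and Slc8a3 type, 9.97 (8.13 to 12.1) in the other Pkhd1-high nuclei and 14.2 (9.71 to 20.05) in the Ccnd3-high class, where 1 nucleus held 11 of 32 UMIs. The Zfp804a type had 3 UMIs. Hepatocyte-like nuclei had 9.69 CPM (8.45 to 11.1), or 221 UMIs against 53.9 from free RNA, and free RNA itself 33.2 CPM.

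The Afp signal in nuclei came partly from few of them. The 20 nuclei with 5 or more Afp UMIs held 192 of 1048, while no free-RNA barcode held more than 3. Of these 20, 12 lay in the cluster with 203 of the 439 Ccnd3-high nuclei and 6 had markers of more than 1 lineage. They had 720 CPM Gpc3 (621 to 831), 461 CPM H19, 179 CPM Igf2 and 57.2 CPM Igf2bp3 (32.0 to 94.3), and 0 Hmga2 UMIs, where 3 counts would be 11.4 CPM. That cluster as a whole had 564 CPM Gpc3 (545 to 584) and 49.2 CPM Igf2bp3 (43.6 to 55.4). Its Hmga2 level, 8.11 CPM, was below those 11.4 CPM, so the 0 does not set the 20 nuclei apart from it. These nuclei were picked by their Afp count, so their Afp level is not a result.

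Spink1, which encodes a trypsin inhibitor also known as a secreted marker of some carcinomas, had 284 UMIs. Ductal nuclei had 28.7 CPM (19.6 to 40.5) from 32 UMIs, 7 of them in 1 nucleus, against 1.29 from free RNA. The nuclei with bile duct and Ccnd3 markers had 13.5 CPM (8.83 to 19.8). In fibroblast-like nuclei 9 of 11 UMIs lay in 1 nucleus, and the level of 14.7 CPM was 2.69 without it. The Kcnj16 and Slc8a3 type had 4 UMIs where free RNA would give 5.22, and the Zfp804a type had 0, where 3 counts would be 4.99 CPM. Hepatocyte-like nuclei had 0.526 CPM and free RNA 5.78.

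Bex2 (chrX:136066564-136068236, minus strand), a brain-expressed X-linked gene, followed Hmga2 rather than Gpc3 across the Pkhd1-high types. It was 39.9 CPM (25.6 to 59.4) in the Zfp804a type, 23.7 (20.9 to 26.9) in the other Pkhd1-high nuclei and 4.39 (3.04 to 6.13) in the Kcnj16 and Slc8a3 type. The Ccnd3-high class had 31.1 CPM (24.2 to 39.2) and the nuclei with bile duct and Ccnd3 markers 24.4 (17.95 to 32.5). The 4 highest classes did not differ from their neighbours beyond counting error. Ductal nuclei had 6.28 CPM from 7 UMIs, against 4.31 from free RNA. Hepatocyte-like nuclei had 1.84 CPM (1.33 to 2.49), or 42 UMIs against 31.4, and free RNA itself 19.3 CPM.

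Levels in the Ccnd3-high class depend on where its border is drawn, as the plot of its definitions shows. Under the 9 definitions tried, Hmga2 there ran from 8.79 to 185 CPM, Igf2bp2 from 38.5 to 186 and Bex2 from 14.2 to 51.1. Gpc3 ran from 160 to 308 CPM, Igf2bp3 from 23.9 to 31.5, Afp from 10.2 to 17.3 and Spink1 from 1.46 to 7.94. All of these were above the hepatocyte-like levels given here.

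Other borders also moved the other Pkhd1-high nuclei. Over the alternatives run, Hmga2 there ran from 30.4 CPM, with the Ccnd3-high class taken by the largest excess of 3 marker sets, to 230 CPM, with whole clusters named by most of their nuclei. Gpc3 ran from 60.4 to 242 CPM and Bex2 from 5.98 to 43.6. In the Zfp804a type Bex2 ran from 24.9 to 72.3 CPM, and Spink1 in ductal nuclei from 22.7 to 60.4.

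**Figure D2:**
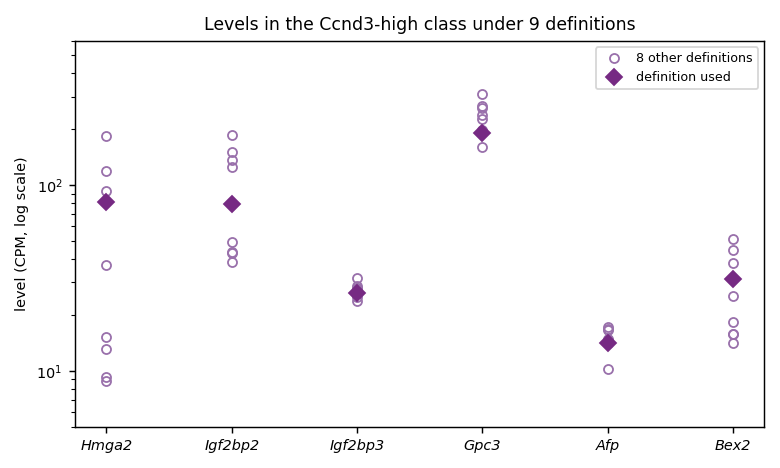
Level of 6 genes in the Ccnd3-high class, in CPM on a log scale, under the definition used (filled diamonds) and 8 others (open circles), which differ in the hepatocyte, bile duct and Pkhd1 markers required or forbidden. Hmga2 spans 8.79 to 185 CPM, while Igf2bp3 spans 23.9 to 31.5.

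Shares of nuclei with a UMI were taken after each nucleus was thinned to 1000 UMIs, because median depth ran from 1998 to 12561 UMIs between the classes compared. A thinned nucleus keeps only part of its free RNA, so the share that 1000 UMIs of free RNA would give is a ceiling. Hmga2 was found in 35.8% of the Zfp804a type (25.4 to 47.2), 3.80% of the other Pkhd1-high nuclei, 3.46% of the Ccnd3-high class and 0.886% of the Kcnj16 and Slc8a3 type. The share was 1.69% in sinusoidal endothelial-like nuclei, and 1000 UMIs of free RNA would give 1.72%. At full depth the same shares were 76.5%, 10.6%, 7.74% and 4.98%, with 7.50% in sinusoidal endothelial-like nuclei. The Kcnj16 and Slc8a3 share was below both after thinning, so no expression is read from it, although all its 47 UMIs compare with 15.7 from free RNA. Sinusoidal endothelial-like nuclei themselves held more Hmga2 than free RNA gives.

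Igf2bp2 was found in 25.9% of the Zfp804a type, 17.9% of the Kcnj16 and Slc8a3 type, 14.8% of the other Pkhd1-high nuclei and 9.45% of the Ccnd3-high class, at full depth 77.8%, 60.4%, 42.0% and 20.05%. Sinusoidal endothelial-like nuclei had 2.54% (8.33% at full depth), free RNA 4.40% and hepatocyte-like nuclei 1.54%. All 4 classes were above these backgrounds. Igf2bp3 was found in 1.48% to 2.76% of these 4 classes and 3.14% of ductal nuclei, with 1.69% in sinusoidal endothelial-like nuclei and 0.363% from free RNA. At full depth Igf2bp3 was in 9.16% to 11.7% of the 4 classes, 13% of ductal and 1.67% of sinusoidal endothelial-like nuclei. The thinned Igf2bp3 shares did not part from the endothelial one beyond counting error.

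Gpc3 was found in 33.6% of ductal nuclei (27.5 to 40.2), 18.8% of the Kcnj16 and Slc8a3 type, 14.9% of the other Pkhd1-high nuclei and 14.1% of the Ccnd3-high class, against 2.54% of sinusoidal endothelial-like nuclei and 6.58% from free RNA. The Zfp804a type, at 2.47%, was at the background. At full depth these shares were 64.6%, 51.7%, 32.5% and 28.5%, with 8.64% in the Zfp804a type and 4.17% in sinusoidal endothelial-like nuclei.

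Afp was found in 0% to 1.61% of the 4 classes after thinning, at full depth in 3.10% to 4.33%. Sinusoidal endothelial-like nuclei had 0.847% (3.33% at full depth), and 1000 UMIs of free RNA would give 3.26%, so no expression is read from the Afp shares. In the Zfp804a type 0 of 81 thinned nuclei had an Afp UMI, and 3 had one at full depth. Bex2 was found in 3.70% of the Zfp804a type (18.5% at full depth), 2.76% of the Ccnd3-high class (9.11%) and 2.16% of the other Pkhd1-high nuclei (8.20%), against 0.847% of sinusoidal endothelial-like nuclei (2.50%) and 1.92% from free RNA. Spink1 was in at most 0.691% of the 4 classes and 0.448% of ductal nuclei. Sinusoidal endothelial-like nuclei had 0.847% and free RNA would give 0.576% for Spink1, and the ductal share is 1 nucleus, so no order is read from these shares. Thinned to 2000 UMIs, 5.45% of ductal nuclei carried Spink1. At full depth 9.42% of ductal nuclei carried Spink1 (5.92 to 14.03), against 0.833% of sinusoidal endothelial-like nuclei.

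**Figure D3:**
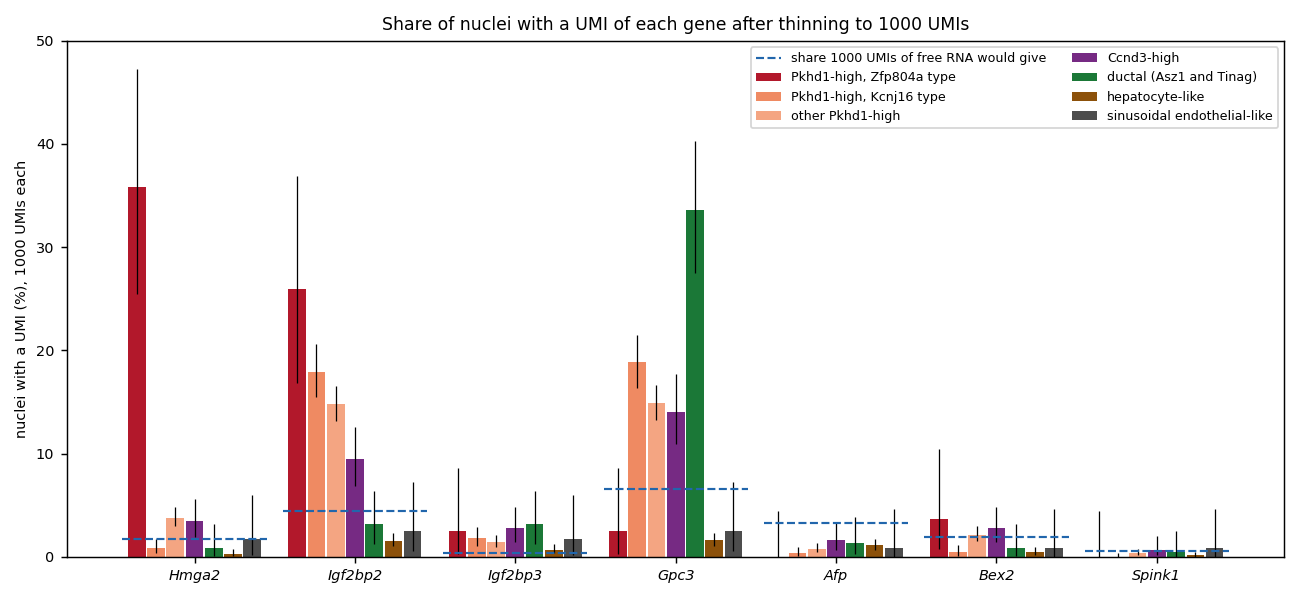
Percent of nuclei with at least 1 UMI of 7 genes in 7 classes after thinning each nucleus to 1000 UMIs. Bars are shares, lines exact binomial 95% intervals and dashed lines the share that 1000 UMIs of free RNA would give. Hmga2 reaches 35.8% in the Zfp804a type and Gpc3 33.6% in ductal nuclei, while Afp lies below the dashed line in each class.

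Against hepatocyte-like nuclei, and with a pseudocount of 1 CPM, 5 of the 9 genes with at least 20 UMIs were at least 2-fold higher in Pkhd1-high nuclei, where 22.4% of all genes were. In ratios without the pseudocount, they were Gpc3, 31.4 times (26.9 to 36.8), Hmga2, 27.0 times (20.7 to 36.0), Igf2bp2, 11.8 times (10.7 to 12.97), Bex2, 8.80 times (6.36 to 12.5), and Igf2bp3, 2.31 times (1.92 to 2.78). None was at least 2-fold lower, where 12.5% of all genes were. The median log2 ratio was 1.11 over these 9 genes and 0.27 over all genes. Spink1 was 3.28 times higher (1.64 to 6.98) and Hmga1 2.82 times (1.29 to 6.65). Their levels were 1.72 and 1.24 CPM, where the pseudocount keeps both under 2-fold. Afp was at 0.822 times the hepatocyte-like level (0.663 to 1.02). Igf2bp1 had too few UMIs to enter.

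In the Ccnd3-high class 6 of 7 genes were at least 2-fold higher than in hepatocyte-like nuclei, where 15.1% of all genes were, and none was at least 2-fold lower, where 4.36% of all genes were. Hmga2 was 33.3 times higher (24.5 to 45.7), though 90 of its 184 UMIs lay in 1 nucleus and the level ran from 8.79 to 185 CPM over the definitions. Gpc3 was higher by 25.9 times (21.6 to 31.2), Bex2 16.9 times (11.4 to 25.4), Spink1 7.59 times (2.83 to 19.6), Igf2bp2 3.79 times (3.18 to 4.52) and Igf2bp3 3.32 times (2.43 to 4.48). Afp was 1.47 times higher (0.979 to 2.13), an interval that holds 1. The median log2 ratio was 1.87, and 0.15 over all genes. Hepatocyte markers summed to a median of 12766 CPM in this class, 12057 in pericentral hepatocyte-like and 18846 in sinusoidal endothelial-like nuclei, and their part in these ratios was not tested.

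In ductal nuclei 4 of 7 genes were at least 2-fold higher than in hepatocyte-like nuclei, where 21.0% of all genes were. Gpc3 was 104 times higher (87.8 to 123), Spink1 54.6 times (27.4 to 116), Igf2bp3 6.37 times (4.63 to 8.64) and Bex2 3.41 times (1.29 to 7.66). Bex2 was near free RNA in both classes, with 7 UMIs against 4.31 in ductal and 42 against 31.4 in hepatocyte-like nuclei. No difference in expression is read from its ratio. Hmga2 and Igf2bp2, at 1.83 (0.571 to 4.52) and 1.08 (0.690 to 1.61) times, had intervals that hold 1.

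Between the Zfp804a type and the Kcnj16 and Slc8a3 type, Hmga2 and Bex2 were 2 of 6 genes at least 2-fold higher in the former, where 7.12% of all genes were. Bex2 differed by 9.10 times (5.16 to 15.8). Gpc3 was the 1 of 6 that was at least 2-fold lower, where 15% of all genes were. Igf2bp2 was 1.90 times higher (1.65 to 2.19), and Igf2bp3, at 1.11 times (0.519 to 2.12), was not parted by counting error. The genes were chosen with differences between these types already known, and nothing is read from these counts.

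Against free RNA, 5 of 8 genes were at least 2-fold higher in at least 1 of the Zfp804a, Kcnj16 and Slc8a3, other Pkhd1-high and Ccnd3-high classes, where 42.4% of all genes were. They were Hmga2, Igf2bp2, Igf2bp3, Gpc3 and Bex2, and Bex2 passed narrowly, at 2.07 times free RNA (1.31 to 3.10) in the Zfp804a type. Afp, at 0.428 times free RNA in the Ccnd3-high class (0.291 to 0.608), was below 2-fold. Free RNA is only part of what a nucleus holds, so a level below it is not by itself background. The 32 Afp UMIs of this class compare with 14.6 that free RNA would give, and 11 of the 32 lay in 1 nucleus.

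**Figure D4:**
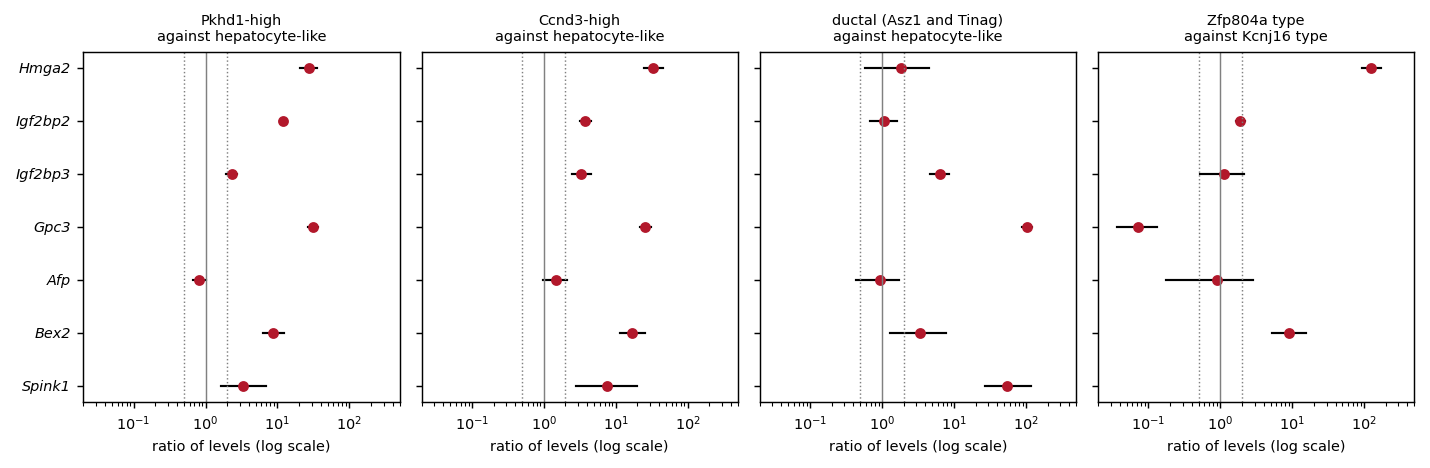
Ratio of levels between classes for 7 genes on a log scale, with exact 95% intervals for counting error. The solid line marks equal levels and the dotted lines 2-fold; Spink1 has no ratio in the last panel because the Zfp804a type had 0 UMIs. Gpc3 is 104 times higher in ductal than in hepatocyte-like nuclei, and Hmga2 126 times higher in the Zfp804a than in the Kcnj16 and Slc8a3 type.

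Detection of Hmga2 in single nuclei went with Igf2bp2 and Bex2 and away from Gpc3 over the other Pkhd1-high nuclei as a whole, but not inside the cluster that held most of the Hmga2. Each nucleus was thinned to 2000 UMIs for this, and the Zfp804a and the Kcnj16 and Slc8a3 types were left out, leaving 1645 other Pkhd1-high nuclei, of which 95 carried Hmga2. Igf2bp2 was found in 65.3% of nuclei with Hmga2 (54.8 to 74.7) and 26.1% without (23.9 to 28.3). Bex2 was found in 13.7% (7.49 to 22.3) against 3.68% (2.80 to 4.74). Gpc3 was found in 10.5% (5.16 to 18.5) against 22.8% (20.7 to 24.9). Gpc3 was also found less with Igf2bp2, in 13.1% of nuclei (10.2 to 16.5) against 25.6% (23.1 to 28.2).

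Most of the links with Hmga2 lay between clusters. Of the 95 nuclei with Hmga2, 77 were among the 309 in the cluster of the Zfp804a type. Inside that cluster Igf2bp2 was found in 70.1% of nuclei with Hmga2 (58.6 to 80.03) and 60.3% without (53.7 to 66.7), and Bex2 in 14.3% (7.35 to 24.1) and 17.2% (12.6 to 22.7). Gpc3 was found in 5 of its 309 nuclei. In all other clusters 18 of 1336 nuclei carried Hmga2. Igf2bp2 was found in 44.4% of these 18 (21.5 to 69.2) against 20.03% without (17.9 to 22.3). Gpc3 was found in 44.4% (21.5 to 69.2) against 26.6% (24.2 to 29.0). The intervals with and without Hmga2 overlap for both genes, so no direction is read from these 18 nuclei. Gpc3 with and without Igf2bp2 was 21.7% (16.9 to 27.1) and 28.1% (25.4 to 30.9) in those other clusters, intervals that overlap. In 900 nuclei of the Kcnj16 and Slc8a3 type, thinned alike, Gpc3 was found in 19.3% with Igf2bp2 (14.6 to 24.7) and 31.3% without (27.7 to 35.0). These intervals do not overlap.

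Inside the Zfp804a type the link of Igf2bp2 with Hmga2 was not seen. Of 80 nuclei, Igf2bp2 was found in 43.9% with Hmga2 (28.5 to 60.3) and 56.4% without (39.6 to 72.2). Bex2 was found in 2.50% of its nuclei with Igf2bp2 (0.0633 to 13.2) and 17.5% without (7.34 to 32.8).

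**Figure D5:**
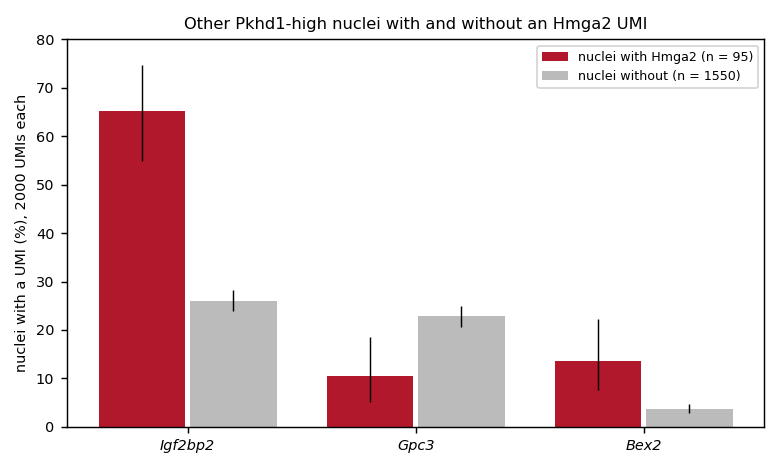
Percent of other Pkhd1-high nuclei with a UMI of Igf2bp2, Gpc3 or Bex2, each nucleus thinned to 2000 UMIs, in the 95 nuclei with and the 1550 without an Hmga2 UMI. Bars are shares and lines exact binomial 95% intervals for counting error. Igf2bp2 stands at 65.3% with and 26.1% without Hmga2, and Gpc3 at 10.5% and 22.8%, and 77 of the 95 nuclei with Hmga2 lie in the cluster of the Zfp804a type.

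The cluster that held the Zfp804a type was larger than that type, with 679 nuclei, and was made without the 10 genes. It held 2327 of the 3503 Hmga2 UMIs in kept nuclei, at 379 CPM (364 to 394). Its 140 nuclei with 3 or more Zfp804a UMIs had 623 CPM Hmga2 (583 to 665), 443 CPM Igf2bp2 (410 to 479) and 41.9 CPM Bex2 (32.0 to 53.8). Its 483 nuclei with no Zfp804a UMI had 276 CPM Hmga2 (260 to 293), 562 CPM Igf2bp2 (539 to 585) and 86.3 CPM Bex2. Gpc3 was 23.3 and 24.2 CPM in these groups. Within this cluster, then, Hmga2 was higher where Zfp804a was seen, and Igf2bp2 and Bex2 were higher where it was not.

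Among Pkhd1-high nuclei, the 128 that passed a set of mitosis genes (median 9810 UMIs) had 318 CPM Igf2bp2 (289 to 350), against 239 (232 to 247) in the other 2625 (median 5901 UMIs). Hmga2, at 57.2 CPM (45.1 to 71.5) and 67.0 (63.2 to 71.0), and Gpc3, at 226 (201 to 253) and 232 (224 to 239), did not differ beyond counting error.

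The genes most like each member across the 17 classes are given as a description, by Pearson's r of log2(CPM + 1) among 12716 genes, and the classes share 1 library and its free RNA. Hmga2 was most like Procr (r = 0.88), Tnfrsf23 (0.83) and Scel (0.81). Igf2bp2 was most like Syngr1 (r = 0.91), Gpi1 (0.90) and Slc27a6 (0.89), and these 6 genes were likewise highest in the Zfp804a type. Igf2bp3 was most like Cdh1 (r = 0.91), which encodes E-cadherin, Rragd (0.89) and Gm36283 (0.88). Gpc3 was most like A630012P03Rik (r = 0.92), Mboat1 (0.89) and Snx16 (0.88). Those of Igf2bp3 and Gpc3 were highest in ductal nuclei. Bex2 was most like Pafah1b3 (r = 0.88), Rrm2 (0.87), a subunit of the enzyme that makes DNA precursors, and 2700054A10Rik (0.83). Afp was most like Yif1a (r = 0.89), Orm2 (0.85) and Pink1 (0.83), which were highest in mesothelial-like and T cell-like nuclei, classes in which Afp had 3 UMIs each.

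Genes around these members were counted in the same way. Over all genes, 22.4% were at least 2-fold higher and 12.5% lower in Pkhd1-high than in hepatocyte-like nuclei, 15.1% and 4.36% in the Ccnd3-high class, and 7.12% and 15% between the Zfp804a and the Kcnj16 and Slc8a3 types. The lists are small, and each count is to be read against the share for its own comparison. Of 13 measured LIN28 and let-7 pathway genes, 4 were at least 2-fold higher in Pkhd1-high than in hepatocyte-like nuclei and 1 was lower, with a median log2 ratio of 0.56. Trim71, an RNA-binding ubiquitin ligase and let-7 target, had 10.6 CPM against 0.263, a ratio of 40.3 (18.2 to 111). Mir99ahg, the host transcript of a let-7 and miR-99 cluster, was 3.62 times higher (3.53 to 3.71), and Dgcr8 and Ago2, of miRNA maturation and action, 2.28 and 2.30 times. Arid3b was at 0.417 times. In the Ccnd3-high class 0 of 12 were at least 2-fold higher or lower.

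Of 12 genes listed as targets or partners of IGF2BP and HMGA proteins, 5 were at least 2-fold higher in Pkhd1-high nuclei. Snai2 was the 1 that was lower, and the median log2 ratio was 0.78. Imp3, 1 of the 12, is not an established target or partner, and was neither higher nor lower by 2-fold. Cd44, a hyaluronan receptor, was 29.1 times higher (24.8 to 34.4), Sox9 6.75 times (6.04 to 7.55), Myc 5.70 times (4.22 to 7.82) and Igf2 2.65 times (2.01 to 3.54). Ccnb2, a mitotic cyclin, was the fifth. In the Ccnd3-high class 5 were higher and 1 lower, with Igf2 at 9.72 times (6.94 to 13.6) and Cd44 at 12.1 times (9.70 to 15.01). Sox9 and Epcam were also bile duct markers in the gating.

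Of 11 other oncofetal or fetal liver genes, 8 were at least 2-fold higher in Pkhd1-high nuclei and 2 lower, with a median log2 ratio of 1.38. Peg3, an imprinted zinc finger gene, had 1545 CPM against 30.7, a ratio of 50.3 (46.7 to 54.3). Scd2, a desaturase of fetal liver, was 16.9 times higher (14.5 to 19.7), Epcam 10.2 times (7.74 to 13.6) and H19, an imprinted RNA, 2.46 times (2.21 to 2.74). Ahsg, the plasma protein fetuin A, was at 0.217 times and Alpl at 0.114 times. In the Ccnd3-high class 5 of 8 were higher and 0 lower, with a median log2 ratio of 2.31, where H19 was 8.10 times (7.10 to 9.22) and Peg3 10.2 times (9.17 to 11.3) the hepatocyte-like level. Dlk1, Sall4 and Cldn6 had at most 2 UMIs in each of these classes.

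The 4 known repressors of Afp, Gpc3 or H19 in adult liver were all measured. Zhx2 was at 0.776 times (0.734 to 0.821) and Zbtb20 at 0.544 times (0.538 to 0.551) the hepatocyte-like level in Pkhd1-high nuclei, while Zfhx3 and Trp53 were 2.05 and 2.56 times higher. In the Ccnd3-high class 0 of 4 differed by 2-fold. In the albumin family, to which Afp belongs, Afm was at 0.174 times, Gc at 0.310 times and Alb at 0.802 times the hepatocyte-like level in Pkhd1-high nuclei, and free RNA is rich in these transcripts.

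Of the other glypicans, 0 of 4 were at least 2-fold higher in Pkhd1-high nuclei and 2 were lower: Gpc4 at 0.235 times (0.221 to 0.249) and Gpc5 at 0.113 times. Gpc4 also went against Gpc3 between the Pkhd1-high types, at 108 CPM in the Zfp804a type and 32.9 in the Kcnj16 and Slc8a3 type, a ratio of 3.29 (2.46 to 4.33). Of 7 other high mobility group genes, 5 were at least 2-fold higher in Pkhd1-high nuclei, led by Hmgb2 at 3.27 times (2.65 to 4.06), which marks dividing cells. Between the Zfp804a and the Kcnj16 and Slc8a3 types, 0 of 7 were higher and 2 lower. Of 3 measured Bex and Tceal genes, 2 were higher, Bex3 at 16.6 times (9.47 to 31.8) and Tceal9 at 4.52 times (3.85 to 5.33). Unlike Bex2, neither was at least 2-fold apart between the Zfp804a and the Kcnj16 and Slc8a3 types, and the Bex3 ratio there was 0.670 (0.178 to 1.78) from 4 UMIs. Of the Spink family and trypsin targets 2 were measured and both were lower: Egfr, the receptor that SPINK1 can bind, at 0.0469 times and Spink5 at 0.0682 times.

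Between the Zfp804a and the Kcnj16 and Slc8a3 types, 3 of 13 LIN28 and let-7 genes were at least 2-fold lower in the former, where 15% of all genes were, and 0 higher. Trim71 had 1 UMI against 117, or 0.110 times (0.00277 to 0.626), Mir99ahg was at 0.447 times (0.408 to 0.490) and Tut7 at 0.484 times (0.367 to 0.626). Igf2 had 0 UMIs in the Zfp804a type, where 3 counts would be 4.99 CPM, and 7.62 CPM in the Kcnj16 and Slc8a3 type. Peg3 was high in both, at 2373 and 1447 CPM.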

How the data were processed

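Single nuclei were profiled with a 10x Genomics 3' kit. The deposited matrices hold UMI counts per gene and barcode, not normalized. Cell Ranger 5.0 and mm10 are named in the submitters' processing notes. The labels do not state whether introns were counted or which sample each barcode came from.

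Barcodes with at least 500 UMIs, 300 genes and at most 5% mitochondrial UMIs were kept. A nucleus passed a marker set (21 sets, 145 markers) when the set's UMIs exceeded free RNA of at most 1000 UMIs at a Poisson p under 0.0001 with 2 markers seen. Free RNA came from uncalled barcodes of 500 to under 850 UMIs. Leiden clusters (24; scanpy 1.11.5, leidenalg 0.10.2, 2000 variable genes, 30 components, 15 neighbours, resolution 1) were made without the 10 genes. UMIs were summed per class (CPM), with exact Poisson, conditional and Clopper-Pearson 95% intervals (scipy 1.17.1), a pseudocount of 1 CPM for 2-fold counts, and at least 20 UMIs over both classes. A count of 0 allows 3 counts. The thinning was random and seeded. Only the 2-fold counts were tested on simulated data.

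The 10 genes, the gene lists and the markers were chosen with earlier results of these data known. Named genes are the members, the 9 lists and, for likeness, the 3 highest r for members with at least 200 UMIs. While the gates were being set with member levels in view, 9 definitions of the Ccnd3-high class and 2 earlier gate rules were tried; the first complete definition was kept and the others serve as alternatives. Symbol St6galnac2 has 2 rows, and the row with more UMIs was used, again with the levels under both known.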

Additional observations from a re-analysis of the deposited data

How the results depend on the processing

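The 3 counts of genes stayed within 1.5 times their main value under all 73 alternative values computed. Genes at least 2-fold higher in Pkhd1-high than in hepatocyte-like nuclei numbered 4 to 7 (5 in the report), in Ccnd3-high nuclei 5 to 6 (6), and above free RNA 4 to 5 (5). The alternatives were other free-RNA profiles, stricter and looser gates, minimum depths, doublets left out, clusters as classes, pseudocounts, no filter on low counts, 3-fold, and, chosen after seeing the data, the definitions and gate rules tried and levels without the top nucleus. Of the alternative values for single genes, 3448 were counted as staying, 531 as moving and 1 as changing direction. A value stayed if it lay within its counting interval or, for log2 ratios, close to the main value relative to the interval's width. Log2 ratios with a count of 0 had no interval and stayed by rule. A change of direction was counted only where the main log2 ratio was at least 1 in size. It was seen for Hmga2 in the Kcnj16 and Slc8a3 type against hepatocyte-like nuclei. This log2 ratio, 1.03, became -0.27 when nuclei of more than 1 lineage were given to the larger excess. The cause was not tested. Some levels depended on the border of the class. Split by cluster, an alternative chosen after seeing the data, Igf2bp2 was found in 70.1% of the other Pkhd1-high nuclei with Hmga2 and 60.3% of those without in the cluster of the Zfp804a type. Hmga2 in the Zfp804a type was 379 CPM with the class taken as its whole cluster, Spink1 in ductal nuclei ran from 22.7 to 60.4, and in the other Pkhd1-high nuclei Hmga2 ran from 30.4 to 230, Bex2 from 5.98 to 43.6 and Gpc3 from 60.4 to 242. No paired analysis was possible because no barcode names its sample; for that reason no sample could be left out in turn either. With clusters named by most of their gated nuclei, no cluster took the name of the Zfp804a type, so that alternative gave no value there.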

Other observations

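A cluster of 583 shallow nuclei, with a median of 1469 UMIs, held 238 Hmga2 UMIs (165 CPM). The value is for the whole cluster, part of which also belongs to the classes of the report. The cluster was made without the 10 genes.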
